A study of Saccharomyces cerevisiae with 12 samples.

Results

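The genes described here encode the 26S proteasome of budding yeast, Saccharomyces cerevisiae, together with RPN4, which encodes the transcription factor that drives their expression. They were chosen by name from a list of 33 genes, made up of 32 subunits and RPN4. Of these, 31 were among the 6100 open reading frames measured, which are RPN4 and 30 subunits (7 of the 20S alpha ring, 7 of the 20S beta ring, 6 ATPases of the 19S cap and 10 other subunits of the cap). RPN2 and RPN11 were not analysed here. Total RNA of 12 samples was labelled and compared with a reference RNA on spotted 2-colour arrays, and the labels do not give the source of the reference. Wild type (strain DBY8778) was sampled at 0, 3, 5, 7 and 9 hours and 1 day. The strain labelled as a deletion of USV1 (YPL230W, a zinc finger protein gene) was sampled at 0, 2, 5, 7 and 9 hours and 1 day. The labels describe both courses as stationary phase, and they give no medium, no parent strain of the deletion and no event from which the hours were counted. Each strain and time had 1 array (6 per strain).

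The proteasome degrades proteins tagged with ubiquitin. Its 20S core is a barrel of alpha rings, which gate the entry, around beta rings, which carry the protease sites, and its 19S cap binds tagged proteins, removes the ubiquitin and unfolds the chain with a ring of ATPases. In yeast, Rpn4 activates the subunit genes through a shared promoter element and is itself a short-lived substrate of the proteasome, so that a loss of proteasome activity raises Rpn4 and with it the subunits. Yeast cells that run out of nutrients stop dividing, and proteasomes are known to move out of the nucleus in such cells.

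All values are log2 ratios of sample to reference with the median of each array set to 0. The direction of the ratio was read from USV1, which was lower in the deletion (log2 difference -2.63, SE 0.56, 5 shared times), so it is likely rather than known, and USV1 does not check the labels. Between 5931 and 6085 genes had a value on an array, and the SD over genes lay between 0.488 and 1.63, with the smallest spread on early arrays. The lowest correlation between 2 arrays was -0.07. A ratio to the reference gives no order of levels between genes. Arrays at 0, 2 or 3 hours are called early here (4 arrays) and those at 7 hours, 9 hours and 1 day late (6 arrays). The 5-hour arrays were left out of the late minus early fit because earlier results of these data had shown the strains to be unlike at that time. Time points stand in for replicates, so late minus early p-values measure the spread among time points of a phase. For the strain effect they measure how steady the difference was over the 5 shared times. For 1 day against 7 and 9 hours they rest on the 6 late arrays, with strain as a factor. No p-value here measures the spread between cultures. A gene is called changed where limma's p, adjusted over all genes tested, was under 0.05.

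RPN4 (YDL020C) was the member with the largest change, and it rose in both strains. In wild type its log2 ratio, listed here and throughout from the first to the last time, was 0.57, 0.20, 0.30, 2.58, 1.12 and 1.69. In the deletion it was 0.22, -0.31, 2.25, 1.87, 1.63 and 2.55. Every late array lay above every early array, and at 5 hours the wild-type value lay with the early ones and the deletion value with the late ones. Late minus early, RPN4 was higher by 1.74 in the mean of the strains (SE 0.29, 3.33-fold, adjusted p = 0.000166). Its rise was 1.41 in wild type (SE 0.41, adjusted p = 0.0141) and 2.06 in the deletion (SE 0.41, adjusted p = 0.00127). The difference of 0.65 between these changes was not called (SE 0.57, adjusted p = 0.96). Of all 6083 genes tested, 13.8% changed by more in size than RPN4. Without the 3-hour array the rise in wild type was 1.23 and no longer called (adjusted p = 0.105).

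**Figure D1:**
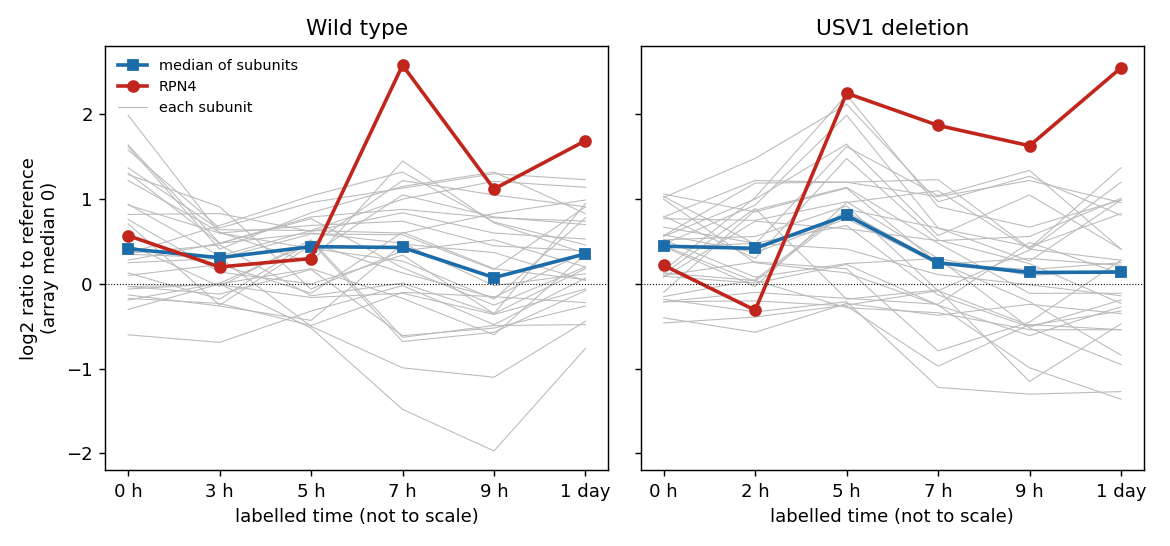
Log2 ratio to the reference (array median 0) at each labelled time, spaced evenly and not to scale, in wild type (left) and the USV1 deletion (right), with RPN4 in red, each of the 30 subunits in grey and the subunits' median in blue. RPN4 goes from 0.30 at 5 hours to 2.58 at 7 hours in wild type and from -0.31 at 2 hours to 2.25 at 5 hours in the deletion, while the subunits' median stays between 0.07 and 0.81 on the 12 arrays.

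Few subunit genes rose with RPN4. Late minus early in the mean of the strains, 3 of the 31 members were called higher (RPN4, RPN5 and RPN8) and 6 lower (PUP1, PRE8, PRE6, PRE1, PRE9 and RPN6), and 22 were not called. Among all genes, 27.7% were called higher and 26.5% lower, so that 54.2% were called in either direction. The median difference of the 30 subunits was -0.21, against 0.07 over all genes. In size the median was 0.29 for subunits and 0.64 for all genes. A difference of at least 1 in size was seen in 2 of the 30 subunits (PUP1 and PRE8), or 6.67%, and in 31.7% of all genes. The late and early arrays of both strains pooled did not overlap in 3 subunits, PUP1, PRE8 and RPN7, all with the late arrays lower, and in no subunit with the late arrays higher. Over all genes such separation was found in 19.9% with the late arrays lower and in 20.7% with them higher. With the values as deposited 2 members were called higher and 9 lower, where 24.3% and 29.1% of all genes were. After quantile normalization 3 were called higher and 17 of the 31 lower, where 27.1% and 25.8% of all genes were. The share of members called lower thus lay below that of all genes in the centred values and above it after quantile normalization. The 3 were RPN4, RPN5 and RPN10. Called lower there were SCL1, PRE8, PRE9, PRE6, PUP2, PRE10, PUP1, PUP3, PRE1, PRE7, RPT2, RPT3, RPT5, RPT6, RPN3, RPN6 and RPN12. Which genes were called thus depended on the normalization. Calls below are those of the centred values unless stated.

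**Figure D2:**
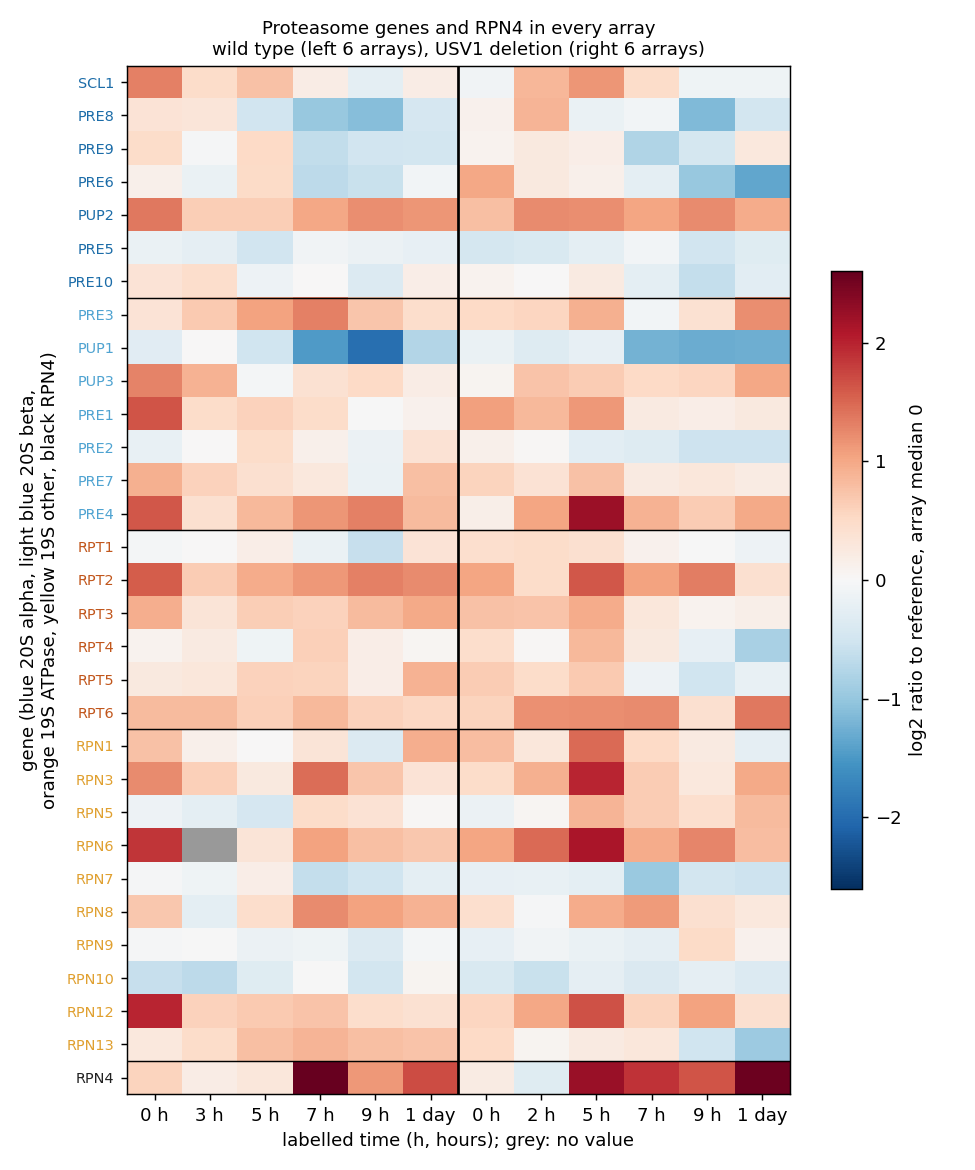
Log2 ratio to the reference (colour, array median 0) of the 31 members (rows) on the 12 arrays (columns, 6 of wild type and then 6 of the deletion), with the 1 missing value in grey. RPN4 at the bottom is at 1.12 or above on the 6 late arrays and at 2.25 at 5 hours in the deletion, PUP1 reaches -1.97 at 9 hours in wild type, and PRE4, RPN3 and RPN6 are highest at 5 hours in the deletion.

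The alpha ring held 3 genes called lower in the mean of the strains, PRE8 (YML092C), PRE6 (YOL038W) and PRE9 (YGR135W), and none called higher among its 7. PRE8 encodes an essential alpha subunit. Its log2 ratio in wild type was 0.35, 0.31, -0.50, -0.99, -1.10 and -0.44 and in the deletion 0.12, 0.89, -0.18, -0.07, -1.15 and -0.47. All late values of PRE8 lay below all early ones. It fell by 1.12 on the log2 scale in the mean of the strains (SE 0.25, adjusted p = 0.002), by 1.17 in wild type (SE 0.36, adjusted p = 0.0196) and by 1.07 in the deletion (SE 0.36, adjusted p = 0.03). In the deletion the call was lost without 2 hours (-0.68, adjusted p = 0.293) or 9 hours (-0.78, adjusted p = 0.106). In wild type the call was lost without 0 hours (-1.15, adjusted p = 0.105), 3 hours (-1.19, adjusted p = 0.0811) or 9 hours (-1.04, adjusted p = 0.0678).

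PRE6 and PRE9 encode neighbouring alpha subunits, of which Pre9 is the 1 core subunit that yeast can live without, with Pre6 able to take its place. PRE6 had log2 ratios of 0.13, -0.18, 0.50, -0.68, -0.57 and -0.08 in wild type and of 1.0, 0.25, 0.13, -0.25, -0.99 and -1.36 in the deletion. The late values of PRE6 lay below the early ones in the deletion and overlapped them in wild type. Its fall was called in the mean of the strains (-0.96, SE 0.26, adjusted p = 0.00607) and in the deletion (-1.49, SE 0.36, adjusted p = 0.00502), where it was not called without the 0-hour array (-1.12, adjusted p = 0.097). With the 5-hour arrays as late, PRE6 was not called in the mean of the strains (-0.71, adjusted p = 0.0853). The late minus early difference of PRE9 was -0.63 in the mean of the strains (SE 0.23, adjusted p = 0.0331). PRE9 was not called in 7 of the 10 fits that left out 1 array (those without wild type 0, 7 or 9 hours or deletion 0, 2, 7 or 9 hours), with differences from -0.78 to -0.50 over all 10 and adjusted p up to 0.142. The other 4 alpha genes were not called. SCL1 (YGL011C) and PRE10 (YOR362C) had differences of -0.57 and -0.44, whereas PUP2 (YGR253C) and PRE5 (YMR314W) had differences of 0.09 and 0.09 (SE 0.21 and 0.18).

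Of the 7 beta ring genes, PUP1 (YOR157C) and PRE1 (YER012W) were called lower and none higher. PUP1 encodes the subunit with the trypsin-like protease site. Its log2 ratio was -0.30, 0.0, -0.52, -1.48, -1.97 and -0.76 in wild type, and -0.18, -0.33, -0.21, -1.22, -1.30 and -1.27 in the deletion. Late and early arrays of PUP1 did not overlap in either strain, and both 5-hour values lay above every late value. PUP1 fell by 1.13 in the mean of the strains (SE 0.23, adjusted p = 0.001), by 1.25 in wild type (SE 0.33, adjusted p = 0.00876) and by 1.01 in the deletion (SE 0.33, adjusted p = 0.0265). Within a strain the call was lost without wild type 3 hours (-1.10, adjusted p = 0.0766) and without deletion 0 hours (-0.93, adjusted p = 0.151), 2 hours (-1.08, adjusted p = 0.0948) or 9 hours (-0.99, adjusted p = 0.0534). In the mean of the strains RPN4, PUP1, PRE8 and PRE6 were called in all 10 fits that left out 1 array.

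PRE1 encodes a beta subunit without a protease site. In wild type its log2 ratio was 1.64, 0.48, 0.60, 0.48, -0.02 and 0.12. In the deletion it was 1.06, 0.85, 1.13, 0.24, 0.17 and 0.25. The highest PRE1 value was that of wild type at 0 hours. The late minus early difference of PRE1 was -0.80 in the mean of the strains (SE 0.24, adjusted p = 0.0105), and without wild type 0 hours the difference was -0.51 and not called (adjusted p = 0.0841). The genes of the other protease sites were not called. PRE2 (YPR103W), which encodes the chymotrypsin-like subunit, differed by -0.18 (SE 0.19), and PRE3 (YJL001W), of the caspase-like subunit, by 0.14 (SE 0.26). PUP3 (YER094C), PRE7 (YBL041W) and PRE4 (YFR050C) encode subunits without a site and had differences of -0.22, -0.35 and 0.18.

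None of the 6 ATPase genes of the cap was called in the mean of the strains with the centred values. There RPT1 (YKL145W) had the lowest difference (-0.29), RPT2 (YDL007W) the highest (0.14) and RPT6 (YGL048C) one of -0.02. The 6 genes encode the ring that unfolds substrates and opens the gate of the core. After quantile normalization RPT2, RPT3, RPT5 and RPT6 were called lower in the mean of the strains, as were 25.8% of all genes. RPT5 (YOR117W) was called lower in the deletion. Its log2 ratio there was 0.67, 0.48, 0.69, -0.13, -0.51 and -0.19, and in wild type it was 0.25, 0.30, 0.59, 0.58, 0.17 and 0.91. Late values of RPT5 lay below the early ones in the deletion, whereas in wild type they overlapped. The late minus early difference of RPT5 was -0.85 in the deletion (SE 0.29, adjusted p = 0.032) and 0.28 in wild type (SE 0.29, adjusted p = 0.476), and the difference between these was not called (-1.13, SE 0.41, adjusted p = 0.96). Its call in the deletion was lost without 0 hours (-0.76, adjusted p = 0.185), 2 hours (-0.95, adjusted p = 0.0972) or 9 hours (-0.73, adjusted p = 0.089). RPT3 (YDR394W) and RPT4 (YOR259C) had late minus early differences of -0.57 and -0.50 in the deletion and of 0.17 and 0.12 in wild type, none of them called.

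Among the 10 other cap genes, RPN5 (YDL147W) and RPN8 (YOR261C) were called higher and RPN6 (YDL097C) lower. All 3 encode subunits of the lid, the part of the cap that removes ubiquitin. RPN5 had log2 ratios of -0.13, -0.26, -0.43, 0.47, 0.37 and 0.04 in wild type and of -0.15, 0.05, 0.88, 0.66, 0.44 and 0.83 in the deletion. Its late values lay above the early ones within each strain, and pooled they overlapped through the 1-day array of wild type. The difference of RPN5 was 0.59 (SE 0.19, adjusted p = 0.0187), and it was not called without deletion 0 hours (0.54, adjusted p = 0.0763) or wild type 3 hours (0.56, adjusted p = 0.0625). RPN8 encodes the inactive relative and partner of the ubiquitin-removing subunit. Its log2 ratio was 0.71, -0.25, 0.46, 1.22, 1.05 and 0.91 in wild type and 0.44, -0.03, 0.96, 1.10, 0.41 and 0.28 in the deletion, where the late and early values overlapped. The difference of RPN8 was 0.61 (SE 0.25, adjusted p = 0.0489). It was not called in 7 of 10 fits that left out 1 array (all but those without wild type 0 hours, wild type 1 day or deletion 1 day), with values from 0.37 to 0.85.

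RPN6 encodes a lid subunit that clamps the cap to the core. Its log2 ratio was 1.86 at 0 hours in wild type, with no value at 3 hours, and then 0.34, 1.05, 0.79 and 0.70. In the deletion it was 1.02, 1.48, 2.12, 0.97, 1.27 and 0.81. The early value of wild type therefore rested on 1 array, which was higher than all others of that strain. The difference of RPN6 was -0.62 in the mean of the strains (SE 0.24, adjusted p = 0.0382) and -1.01 in wild type (SE 0.37, adjusted p = 0.0454). In the mean of the strains it was not called in 5 of 9 fits that left out 1 array (without wild type 9 hours or 1 day, or deletion 2 hours, 7 hours or 1 day), with values from -0.74 to -0.51. In wild type it was not called in 6 of 9 fits that left out 1 array (without wild type 3 hours, 9 hours or 1 day, or deletion 0, 2 or 7 hours), with adjusted p up to 0.0951. The 7 remaining cap genes were not called. RPN10 (YHR200W) and RPN13 (YLR421C), which encode receptors for ubiquitin, had differences of 0.33 and -0.14. RPN1 (YHR027C), the scaffold that also binds ubiquitin and shuttle proteins, had -0.26, and RPN3 (YER021W), RPN7 (YPR108W), RPN9 (YDR427W) and RPN12 (YFR052W) of the lid had -0.07, -0.42, 0.06 and -0.44.

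Within single strains the counts were smaller. In wild type 1 member was called higher (RPN4) and 3 lower (PUP1, PRE8 and RPN6), where 17.9% of all genes were called higher and 19.4% lower (37.3% in either direction). In the deletion 1 was higher (RPN4) and 4 lower (PRE6, PRE8, PUP1 and RPT5), where 19.9% of all genes were called higher and 19.1% lower (39% in either direction). Without 1 early array of a strain, fewer members were called in that strain, and so were fewer of all genes. The members' median in wild type was then 0.06 without 0 hours and -0.36 without 3 hours. In the deletion it was -0.29 without 0 hours and -0.10 without 2 hours. Without wild type 9 hours 1 wild-type member was lower, against 15.8% of all genes. Without deletion 9 hours 1 member was lower in the deletion, against 18.6% of all genes. Without wild type 1 day 2 members were higher in the deletion, against 21.4% of all genes. In wild type the late arrays lay wholly above the early ones in 4 subunits and wholly below in 9, against 32.4% and 30.7% of all genes. In the deletion these counts were 2 and 11 of 30, against 34.1% and 30.5% of all genes.

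**Figure D3:**
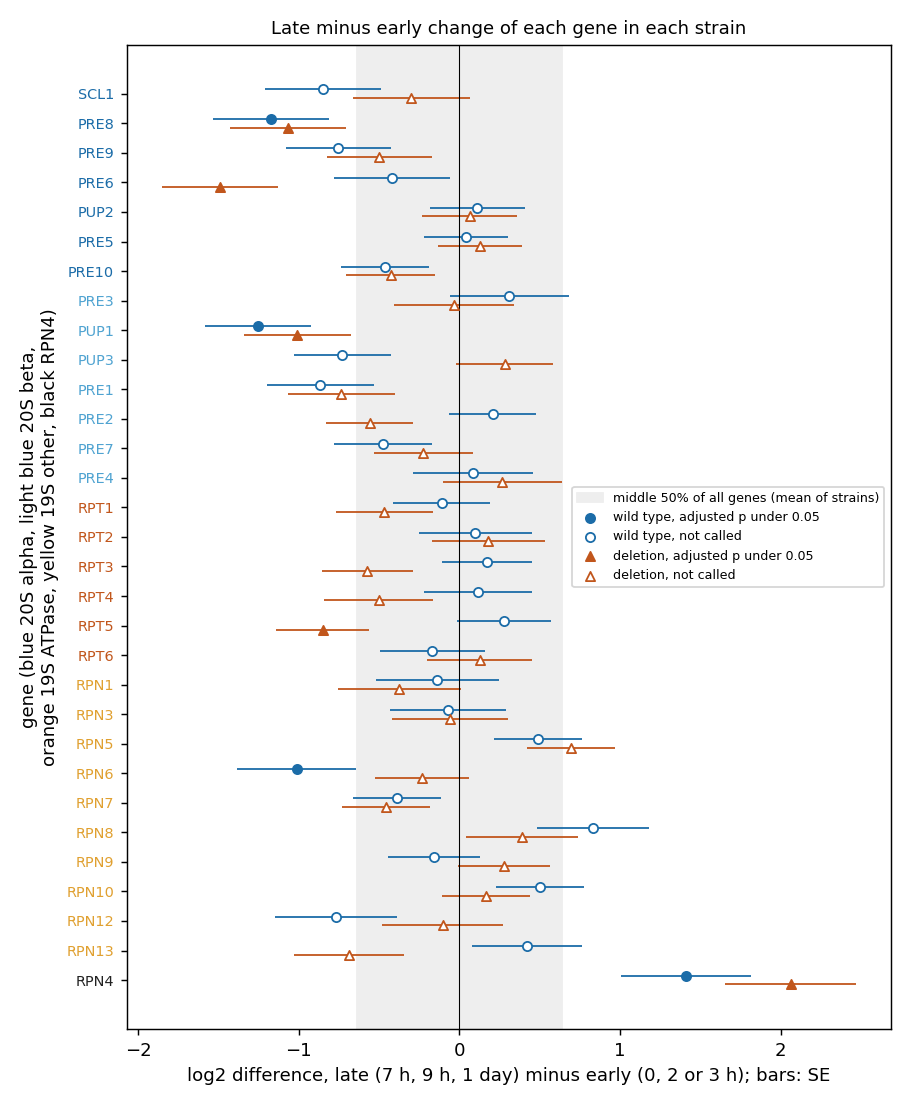
Late minus early log2 difference of each of the 31 members in wild type (circles) and in the deletion (triangles), with bars of 1 SE, filled where the adjusted p was under 0.05 and open elsewhere, and in grey the middle 50% of all genes in the mean of the strains. RPN4 lies at 1.41 and 2.06, PRE8 and PUP1 lie below -1.0 in both strains, and most other subunits lie inside the grey band.

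In the deletion the median of the subunits was highest on the 5-hour array, the first on which RPN4 was high. In wild type part of the subunits peaked at 7 hours, where RPN4 was highest. This pattern was chosen after the values were seen, rests on single arrays and has no test. In the deletion the subunits' median was 0.45, 0.42, 0.81, 0.25, 0.14 and 0.14, highest at 5 hours. That array also had the largest SD over genes (1.63). RPN4 of the deletion was highest at 1 day (2.55), where the subunits' median was 0.14. There 4 of 29 subunits had their highest value, against 19.3% of all genes. In wild type the median was 0.41, 0.31, 0.44, 0.43, 0.07 and 0.36. It was thus no higher at 7 hours than at 5 hours, where RPN4 was at 0.30. Of the 29 subunits with all 12 values, 14 had their highest value of the deletion course at 5 hours, as did 21.7% of all genes. At 5 hours 16 of the 29 lay above both neighbouring arrays, against 32.2% of all genes. In wild type 13 of the 29 lay above both neighbours at 7 hours, against 26.8% of all genes, and 8 of 29 had their highest value there, against 19% of all genes. At the other inner times of wild type such peaks numbered 5 at 3 hours, 9 at 5 hours and 4 at 9 hours (26.9%, 25.9% and 29.4% of all genes). In the deletion they numbered 7 at 2 hours, 5 at 7 hours and 7 at 9 hours (22.6%, 25.5% and 31.1% of all genes). The largest share of highest values in wild type was at 0 hours, with 9 of 29 subunits and 21.8% of all genes.

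From 2 to 5 hours in the deletion RPN4 was higher by 2.56, and 21 of the 30 subunits were higher, with a median difference of 0.22, against 53.6% of all genes and an all-gene median of 0.11. Of these, 4 were at least 2-fold higher and 1 (PRE8) at least 2-fold lower, against 21.6% and 21.5% of all genes. The 4 were PRE4 (1.21), RPN1 (1.18), RPT2 (1.15) and RPN3 (1.06). From 5 to 7 hours 25 of the 30 subunits were lower, against 48.3% of all genes, with a median difference of -0.56, while RPN4 differed by -0.38. In that step 6 were at least 2-fold lower, RPN3 (-1.33), PRE4 (-1.32), RPN6 (-1.15), RPN12 (-1.08), PUP1 (-1.01) and PRE3 (-1.0), which is 20% of subunits against 3.87% of all genes, and none was 2-fold higher, against 7.67%. PRE4, RPN3 and RPN6 gave their highest values of the deletion course, 2.23, 1.99 and 2.12, at 5 hours. The other steps of the deletion held 1 subunit past 2-fold, PRE8 from 7 to 9 hours (-1.08), where 3.75% of all genes were at least 2-fold higher and 3.64% lower. From 0 to 2 hours these shares of all genes were 1.3% and 0.606%, and from 9 hours to 1 day 5.73% and 5.91%.

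From 5 to 7 hours in wild type RPN4 was higher by 2.28, and 18 of the 30 subunits were higher, with a median difference of 0.12, against 50.5% of all genes and an all-gene median of 0.02. RPN3 was at least 2-fold higher (1.20), and PRE6 (-1.18) and PRE9 (-1.15) at least 2-fold lower, against 16% and 18.2% of all genes. From 7 to 9 hours RPN4 differed by -1.46 and 22 of the 30 subunits were lower, against 45.2% of all genes, with a median of -0.26 and none past 2-fold in either direction (4.46% and 2.3% of all genes were higher and lower). From 9 hours to 1 day RPN1 (1.30) and PUP1 (1.21) were at least 2-fold higher and none lower, against 5.73% and 4.41% of all genes. The first step of wild type, 0 to 3 hours, held 3 subunits of 29 at least 2-fold lower, RPN12 (-1.39), PRE4 (-1.21) and PRE1 (-1.16), or 10.3%, against 2.81% of all genes, and none higher, against 1.44%. From 3 to 5 hours no subunit passed 2-fold in either direction, as 2.96% of all genes did upward and 1.75% downward.

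**Figure D4:**
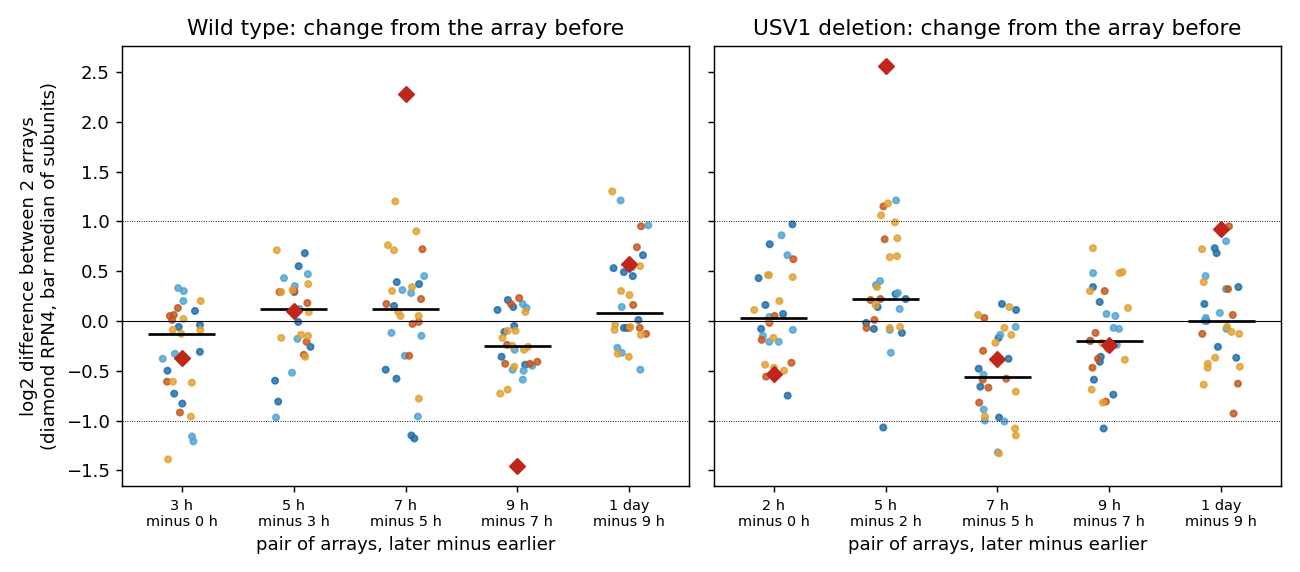
Log2 difference between each array and the one before it in wild type (left) and the deletion (right), with each subunit as a point (blue 20S alpha, light blue 20S beta, orange 19S ATPase, yellow other 19S), RPN4 as a red diamond and the subunits' median as a bar; dotted lines mark a 2-fold difference. RPN4 stands apart at 2.28 from 5 to 7 hours in wild type and 2.56 from 2 to 5 hours in the deletion, and the subunits' median is lowest, at -0.56, from 5 to 7 hours in the deletion.

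Whether the loss of USV1 alters these genes was tested over the 5 shared times and as a difference of the late minus early changes. No member was called in either test, and neither was any other gene (0% of 6062 and 0% of 6083 genes by limma). USV1 itself was not called for the strain effect (-2.63, SE 0.56, adjusted p = 0.814). The lack of a call therefore does not show that a member was unchanged. At an unadjusted p under 0.05 the strain effect had 260 genes, of which 1 was a member, and the difference of changes had 249 genes, of which 3 were members. For the strain effect the 3 most positive members were RPN5 (0.47, SE 0.27), RPN4 (0.45, SE 0.38) and RPN6 (0.29). The 3 most negative were RPN13 (-0.78, SE 0.31), PRE2 (-0.44, SE 0.25) and RPT5 (-0.39, SE 0.28), all with adjusted p of at least 0.814. For the difference of changes the extremes were PUP3 (1.01, SE 0.43), RPN6 (0.78, SE 0.47) and RPN12 (0.67) on one side, and RPT5 (-1.13, SE 0.41), RPN13 (-1.11, SE 0.48) and PRE6 (-1.07, SE 0.51) on the other, all with an adjusted p of 0.96. The value for RPN12 was -0.03 without wild type 0 hours, and that for RPN6 in the strain effect was -0.08 without 5 hours. Without 5 hours the RPN4 strain effect was 0.08.

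At single times the strains differed most at 5 hours. There 23 of the 30 subunits were higher in the deletion, against 51.4% of all genes, with a median difference of 0.36, and RPN4 was higher by 1.95. At least 2-fold higher were RPN6 (1.78), RPN3 (1.74), RPN1 (1.48), PRE4 (1.39) and RPN5 (1.31), or 16.7% of subunits, against 20.4% of all genes, and none was 2-fold lower, against 20%. At 0 hours 4 subunits were at least 2-fold lower in the deletion, PRE4 (-1.46), RPN12 (-1.43), SCL1 (-1.41) and PUP3 (-1.21), or 13.3%, against 2.26% of all genes, and none higher, against 1.46%. These 4 had wild-type ratios between 1.29 and 1.99 at 0 hours, each the highest of its wild-type course. At 7 hours PRE3 (-1.40) and at 9 hours RPN13 (-1.30) were the only subunits past 2-fold, both lower in the deletion, where 2.25% and 2.64% of all genes were so and 5.72% and 3.63% were at least 2-fold higher. At 1 day 4 subunits were at least 2-fold lower in the deletion, RPN13 (-1.69), PRE6 (-1.28), RPN1 (-1.18) and RPT5 (-1.10), against 8.92% of all genes, and none higher, against 8.98%.

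Within the late arrays no member was called between 1 day and the mean of 7 and 9 hours. Of 5965 genes, 12 were called (0.201%), and 778 genes but 0 members had an unadjusted p under 0.05. PRE9 (0.49, SE 0.31), PUP1 (0.48, SE 0.32) and PRE8 (0.37) had the most positive differences, and RPT4 (-0.61, SE 0.31), RPN13 (-0.47, SE 0.33) and RPT2 (-0.38, SE 0.30) the most negative. RPN4 differed by 0.32 (SE 0.40, adjusted p = 0.775). Each of these differences rests on a single 1-day array per strain: without that of wild type PUP1 was at -0.01, and without that of the deletion RPN4 was at -0.16 and RPT2 at 0.02.

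The genes that act beside the subunits were taken in 4 lists, of which 47 of 48 genes were in the table. Of the 9 assembly chaperones, which build the proteasome and leave it again, 3 were called higher and 1 lower late minus early in the mean of the strains, against 27.7% and 26.5% of all genes, and the list's median was -0.28. The 3 were RPN14 (1.33, SE 0.18, adjusted p = 3.4e-05), NAS2 (0.88, SE 0.27) and HSM3 (0.72, SE 0.23), which assist the ATPase ring of the cap. RPN14 had log2 ratios of -0.03, -0.03, 0.40, 1.23, 1.39 and 1.31 in wild type and of 0.0, 0.01, 1.69, 1.5, 1.15 and 1.31 in the deletion, with every late value above every early one. IRC25, which assists the alpha ring, was called lower (-0.82, SE 0.23). Within the strains NAS2, HSM3 and IRC25 were called in wild type (1.09, 1.07 and -1.095) and not in the deletion (0.68, 0.37 and -0.55). NAS6 was called higher in the deletion only (0.92, adjusted p = 0.0388). After quantile normalization IRC25 was at -0.49 in the mean of the strains and not called (adjusted p = 0.0882), and HSM3 stood at -0.23. NAS2 was not called without wild type 0 hours (0.81, adjusted p = 0.0505), nor HSM3 without deletion 2 hours (0.56, adjusted p = 0.102) or wild type 3 hours (0.64, adjusted p = 0.0682).

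Of the 7 measured accessory factors and alternative caps, 2 were called higher and 0 lower, with a list median of 0.51, where 27.7% and 26.5% of all genes were called. SPG5, a regulator of the proteasome needed for survival in stationary phase, had the largest rise of any gene in the 4 lists. Its log2 ratio was 0.24, 0.37, 0.81, 3.13, 3.75 and 3.42 in wild type and 0.05, 0.58, 1.69, 3.56, 2.83 and 3.28 in the deletion. SPG5 was higher by 3.02 late minus early (SE 0.22, adjusted p = 1.3e-07), and its late arrays lay above its early arrays without overlap. FUB1, a proteasome-binding protein, was higher by 1.20 (SE 0.24, adjusted p = 0.000844). BLM10, an alternative cap of the core, had a difference of 0.17 that was not called.

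Of the 23 genes of ubiquitin conjugation, shuttling and removal, 5 were called higher and 1 lower, against the same 27.7% and 26.5% of all genes, with a list median of 0.25. UBI4 encodes polyubiquitin, the form made under stress, and was higher by 1.60 (SE 0.26, adjusted p = 0.00014). UBC5 was higher by 1.58 (SE 0.29, adjusted p = 0.000344), and its near-identical paralogue UBC4 was lower, with a difference of -1.23 (SE 0.24, adjusted p = 0.000645). Both encode conjugating enzymes for damaged proteins. UBC4 was called in the deletion (-1.785, SE 0.34, adjusted p = 0.000995) and not in wild type (-0.67, SE 0.34, adjusted p = 0.133). The difference between these was not called (-1.11, SE 0.48, adjusted p = 0.96). UBC4 had log2 ratios of 0.68, 0.02, 0.44, -0.09, -0.80 and -0.08 in wild type and of 0.83, 0.38, -0.06, -0.81, -1.23 and -1.5 in the deletion, and UBC5 of 0.90, 0.70, 1.28, 1.67, 2.52 and 2.68 and of 0.60, 0.44, 2.11, 2.44, 1.36 and 2.77. Spotted probes can bind RNA of near-identical genes, so the values of this pair, and of UBI4 beside the other ubiquitin genes, are uncertain. DDI1, a shuttle protein, was higher by 0.85 (SE 0.22, adjusted p = 0.00437). With the 5-hour arrays as early DDI1 was at 0.69 and not called (adjusted p = 0.0813). The remaining 2 called higher were DOA4, an enzyme that removes ubiquitin (0.66), and HRD1, a ligase of the endoplasmic reticulum (0.59). DOA4 kept its call in 4 of 10 fits that left out 1 array (the losses came without wild type 0, 3 or 7 hours or deletion 0, 2 or 7 hours, with values down to 0.51) and HRD1 in 2 of 10 (those without wild type 1 day or deletion 1 day, with values down to 0.52). Both lost it with the values as deposited (0.58, adjusted p = 0.0601, and 0.51, adjusted p = 0.0602) and after quantile normalization (0.50, adjusted p = 0.0791, and 0.28, adjusted p = 0.265). UBC5 was not called after quantile normalization (0.52, adjusted p = 0.0754).

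Of the 8 genes that activate RPN4 or act in the turnover of its product, 2 were called higher and 1 lower (all genes 27.7% and 26.5%), with a list median of 0.14. PDR1, an activator of RPN4, was lower, with a difference of -0.76 (SE 0.23, adjusted p = 0.0132), and its paralogue PDR3 was higher by 0.58 (SE 0.22, adjusted p = 0.035). PDR1 was called in wild type (-1.25, SE 0.33, adjusted p = 0.00894) and not in the deletion (-0.28, SE 0.33, adjusted p = 0.532). The difference between these was not called (0.97, SE 0.47, adjusted p = 0.96). UBR2, which encodes the ligase that tags Rpn4 for degradation, was higher by 0.58 (SE 0.19, adjusted p = 0.0199). PDR1 was highest at 0 hours in wild type (1.98) and was not called without that array (-0.47, adjusted p = 0.104) or without deletion 0 hours (-0.70, adjusted p = 0.0593). PDR3 was not called in 6 of 10 fits that left out 1 array (without wild type 3 or 9 hours or deletion 0, 2, 7 or 9 hours, values down to 0.42), and UBR2 was not called without deletion 2 hours (0.50, adjusted p = 0.0908) or wild type 3 hours (0.54, adjusted p = 0.0669). The call of PDR3 was also lost with the values as deposited (0.50, adjusted p = 0.0634) and after quantile normalization (0.23, adjusted p = 0.41), and that of UBR2 after quantile normalization (0.44, adjusted p = 0.0716). No gene of the 4 lists was called for the strain effect, for the difference of changes or within the late arrays, and UFD2 had too few values to be tested for the strain effect.

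**Figure D5:**
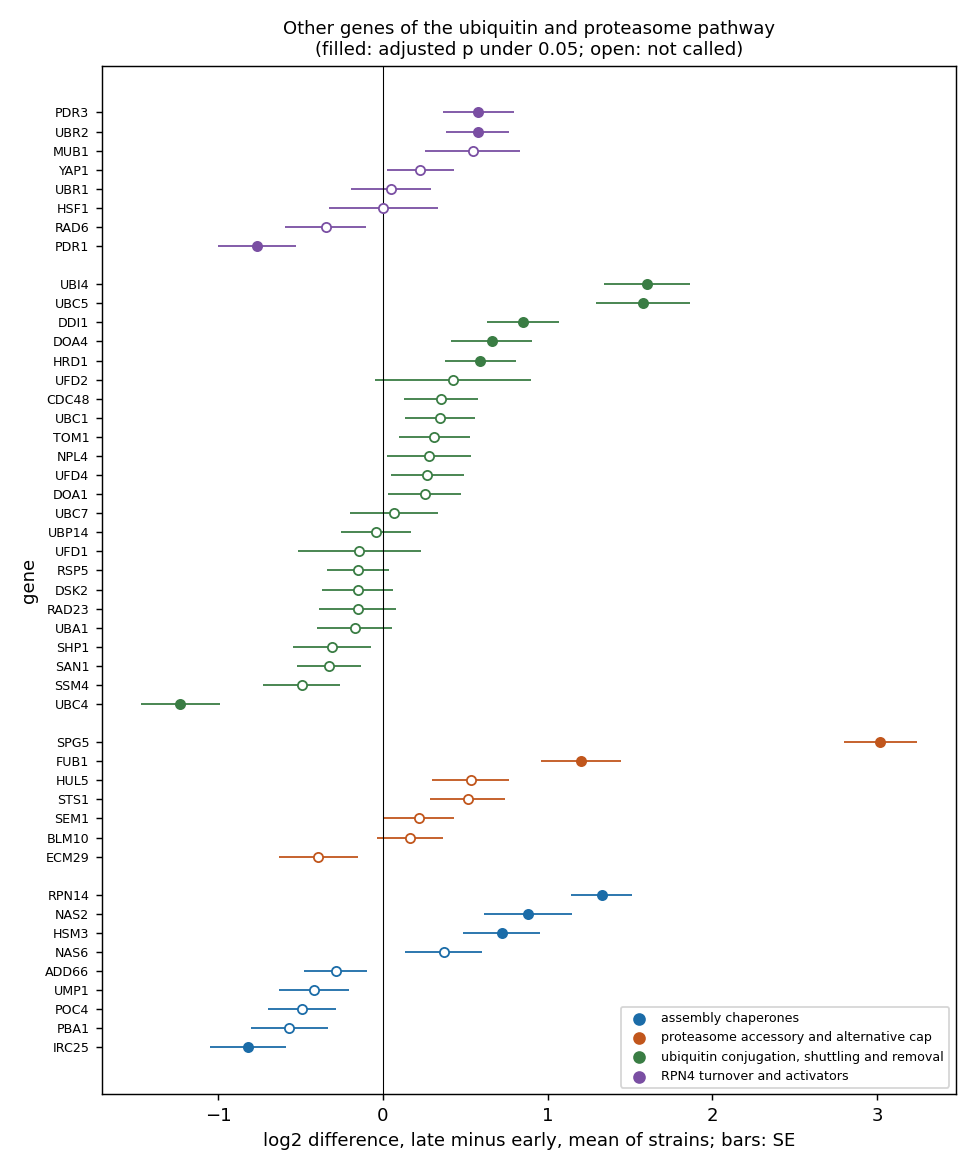
Late minus early log2 difference in the mean of the strains for the 47 measured genes of the 4 lists (rows, colour by list), with bars of 1 SE, filled where the adjusted p was under 0.05. SPG5 lies farthest to the right at 3.02 and UBC4 farthest to the left at -1.23.

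Across the 12 arrays the subunits did not share a single relation to RPN4. Pearson's r with RPN4, given as a description since the arrays fall into an early and a late set and share a reference, ran from -0.68 (PRE6) to 0.84 (RPN5) over the 29 subunits with 12 values, with a median of -0.08, and 13 were above 0. Over all 5362 genes with 12 values the median was 0.09, with quartiles of -0.62 and 0.63. After RPN5 the highest were RPN10 (0.67) and RPN8 (0.62), and near the low end stood RPN7 (-0.65) and PRE8 (-0.62). These 4 values lay close to the quartiles of all genes, so an r of this size was common and does not set these subunits apart. The 5 genes outside the list with the highest r were YJL015C (0.95), HBT1 (0.95), COQ11 (0.94), YGR127W (0.94) and HSP42 (0.93).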

How the data were processed

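The authors deposited 1 table of log2 ratios, 1 value per gene and array; the base and direction of the ratio are not stated and were taken as 2 and sample over reference. For the scanner, background correction, spot filter and normalization, no source used here gives the method. The table held 6100 open reading frames on 12 arrays, with 0 columns of other samples. Each array was centred to median 0. Names came from a RefSeq table of assembly R64 (5592 matched, 508 did not). Groups followed the labelled strain and time. The tests were run with limma 3.58.1 (lmFit, eBayes) in R 4.3.3 on all genes with at least 1 early and 2 late values per strain, or at least 4 of 5 values per strain for the strain effect, with Benjamini-Hochberg adjustment over all genes tested, called at 0.05. The fits were tested on simulated data. Single-array differences were counted at 2-fold with no test. Full statistics went to RPN4 and to the 3 largest rises and falls of each test, with up to 4 called genes per list. The members, lists and rules were chosen with earlier results of these data known. The number of arrays limits the precision. Alternatives were values as deposited, quantile normalization, complete genes, robust eBayes, another phase for the 5-hour arrays, 1 day minus 0 hours, no time factor, and each array left out. Promoter sequences were not used here.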

Additional observations from a re-analysis of the deposited data

How the results depend on the processing

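With 1 array per strain and time, the limits are those of single arrays: early values rest on 2 arrays per strain, and no spread between cultures was measured. The strain effect pairs the strains by shared time, and without the time factor it called 0 members, as with it. No paired analysis by replicate number was possible because the labels give no such numbers. RPN4 kept its rise in the mean of the strains under every alternative in direction. It lost its call only for 1 day minus 0 hours (1.73, adjusted p = 0.116). There 0 members were called higher and 0 lower, against 3.1% and 1.22% of all genes. Complete genes, robust eBayes and values as deposited left the counts of members within 1.5 times of those reported. With the values as deposited the median of all genes in the deletion went from 0.07 to -0.03. Quantile normalization gave 17 of 31 members lower and a median of -0.66 in the mean of the strains (25.8% of all genes lower), 6 lower with a median of -0.40 and RPN4 at 0.84 (adjusted p = 0.111) in wild type (15.5%), and 8 lower with a median of -0.67 in the deletion (19.9%). It ended the calls of PUP1 (-0.83, adjusted p = 0.0556) and PRE8 (-1.15, adjusted p = 0.0613) in wild type and of PUP1 in the deletion (-0.67, adjusted p = 0.0966). It turned HSM3 to -0.23. With the 5-hour arrays as early, 1 member was higher and 5 lower in the mean of the strains, against 15.2% and 14.6% of all genes. RPN5, RPN6 and RPN8 then lost their calls. In wild type 0 were higher and 1 lower, against 7.29% and 7.96% of all genes. The members' median was 0.013, and RPN4 stood at 1.44 (adjusted p = 0.101). In the deletion 0 were higher and 0 lower, against 1.13% and 0.148% of all genes. The members' median there was -0.44, and RPN4 stood at 1.30 (adjusted p = 0.237). The median difference of changes was -0.24, and those of RPN4 and RPN6 turned to -0.14 and -0.27. With the 5-hour arrays as late, 1 member was higher and 2 lower in the mean of the strains, against 21.8% and 21.7% of all genes. RPN5, RPN8, PRE6, PRE9, PRE1 and RPN6 then lost their calls. In wild type 0 were higher and 0 lower, against 1.72% and 1.15% of all genes. RPN4 stood at 1.04 there (adjusted p = 0.183). In the deletion 1 was higher and 0 were lower, against 15.3% and 15.2% of all genes, with a median of -0.035. The cause of these shifts was not tested. The call of RPN8 was lost with values as deposited (0.53, adjusted p = 0.0791) and after quantile normalization (0.36, adjusted p = 0.307).

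With 1 late array left out in turn, 2 to 3 members were called higher and 4 to 6 lower in the mean of the strains. The shares of all genes were then 24.9 to 28.8% and 24.7 to 27.6%. In wild type 1 member was higher and 1 to 4 lower, against 13.8 to 19.7% and 15.8 to 21.3% of all genes. In the deletion 1 to 2 were higher and 1 to 5 lower, against 16.7 to 21.4% and 16 to 20.4%. With each array, early or late, left out in turn, the members' median in the mean of the strains was -0.31 to -0.11. RPN4 was then at 1.54 to 1.91. In wild type the median was -0.36 to 0.062 and RPN4 1.02 to 1.75. In the deletion the median was -0.29 to -0.10 and RPN4 1.79 to 2.33. For the difference of changes the members' median was -0.24 to 0.16 and RPN12 -0.03 to 1.36. For the strain effect the median was -0.18 to 0.11 and RPN6 -0.0825 to 0.57. For 1 day against 7 and 9 hours the median was -0.035 to 0.13, PUP1 -0.01 to 0.97, RPN4 -0.16 to 0.80 and RPT2 -0.78 to 0.015. None of these 3 comparisons called a member in any such fit.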
